A study of Mus musculus with 12 samples.

Results

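Complement and coagulation factors are plasma proteins made mainly by hepatocytes, and 37 of their genes were followed here through the livers of Scly KO and wild-type mice. The members were taken from the gene-level count table by their gene symbols, 37 of 24795 genes in the table. Of these, 18 belong to complement (C1ra, C1s1, C2, C3, C4b, Hc, C6, C8a, C8b, C8g, C9, Cfb, Cfi, Mbl1, Mbl2, Masp1, Masp2 and C4bp) and 19 to coagulation and fibrinolysis (F2, F5, F7, F9, F10, F11, F12, F13b, Fga, Fgb, Fgg, Klkb1, Kng1, Plg, Proc, Pros1, Vtn, Hrg and Cpb2). All 37 passed the filter on low counts, which left 12009 genes of the table for testing.

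Liver RNA of male mice was sequenced in 12 libraries, 3 for each genotype and diet. WT mice were C57BL/6N, and Scly KO mice came from a homozygous colony without selenocysteine lyase, the enzyme that frees selenium from selenocysteine. From weaning, both were fed sodium selenite for 8 weeks or longer, at 0.08 μg/g of selenium, a mildly low supply, or at 0.25 μg/g, an adequate one. Libraries S1, S2 and S3 came from WT mice with low selenium (WT LS), S4, S5 and S6 from WT mice with adequate selenium (WT MS), S7, S8 and S9 from Scly KO mice with adequate selenium (KO MS) and S10, S11 and S12 from Scly KO mice with low selenium (KO LS). The gene was disrupted in the whole animal and the tissue was whole liver, and in such bulk samples fewer cells of a type and less RNA per cell cannot be told apart. The KO mice were kept as a colony of their own and WT mice were bred in the same facility, and a difference between the colonies cannot be told apart from one of genotype. The labels do not say whether the libraries of a group are different mice, so that a p-value speaks only for the spread among these libraries. Values below are given for S1, S2 and S3, then S4, S5 and S6, and so on, always in library order.

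Complement is a cascade of proteases and binding proteins that marks microbes and damaged cells. Antibody (through C1) or sugars (through the mannose-binding lectins) start it, convertases built from C4, C2, factor B and C3 amplify it, and C5 to C9 assemble a pore in the target membrane. Coagulation is another protease cascade, which ends with thrombin cutting fibrinogen into fibrin, while plasmin dissolves the clot and proteins C and S hold thrombin formation back. Several members of both cascades, among them fibrinogen and C3, are acute phase proteins, whose synthesis hepatocytes raise under IL-6 and related cytokines.

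The libraries held 4797067 to 11762165 estimated counts. Scly itself was at 83.1, 77.5 and 73.1 CPM (counts per 1000000 after TMM scaling) in WT LS, 92.2, 105 and 88.3 in WT MS, 6.35, 6.90 and 6.32 in KO MS and 4.97, 5.10 and 4.84 in KO LS, and every library matched its genotype label. Hepatocyte markers far outweighed those of other liver cells in each library, with a summed level of 85590 CPM in S12 and 99444 to 145652 CPM elsewhere. Some libraries stood apart. In S7 and S8 the ribosomal RNA precursor Rn45s took 17.0% and 19.9% of the counts, against 2.45% to 9.23% elsewhere. S12 had the lowest mean Spearman correlation with the other libraries (0.873) and the largest TMM factor (1.54, against 0.751 to 1.08 for the others). Markers of bile duct cells summed to 289 CPM there and to 23.0 to 42.6 CPM elsewhere, with Epcam at 11.7 and Krt19 at 5.01 CPM. S1 was the shallowest library. Without scaling factors the median gene deviated by 0.605 from its mean over libraries in S12 and by -0.395 in S7 on the log2 scale, so levels in those libraries depend on the scaling.

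Fibrinogen, kininogen, vitronectin and prothrombin supplied the most abundant members. Per kilobase of transcript, mean levels over the 12 libraries ran from 2155 CPM for Fgg, 1481 for Fga and 1083 for Kng1 (kininogen, the precursor of bradykinin) down to 23.3 for Masp1, a protease of the lectin pathway, and 17.9 for Pros1, which encodes the anticoagulant protein S. Fgb was at 863 CPM per kilobase, Vtn (vitronectin) at 813, F2 (prothrombin) at 793 and Plg (plasminogen) at 593. C3, on which all complement pathways converge, ranked first among the complement members at 733 CPM per kilobase, followed by C8g at 409.8 and Cfb (factor B) at 364. Among the least abundant were F7 at 30.3, C2 at 29.9 and F11 at 27.0 CPM per kilobase. The members differed widely in how steady they were. Between the highest and the lowest library, C8g differed 10.3-fold, C8b 9.39-fold, Mbl1 8.42-fold, C6 7.35-fold and C3 6.13-fold, whereas Masp1 differed 1.66-fold and C2 1.80-fold.

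Summed over its 18 members, complement RNA was at 12828, 11097 and 9735 CPM in WT LS, 10036, 9450.5 and 10209 in WT MS, 8824, 11196 and 11891 in KO MS and 16905, 11588 and 9384 in KO LS. Its group means were 11220.1 ± 1550.2, 9898 ± 397, 10637 ± 1608 and 12626 ± 3866 CPM (SD, n = 3), and all 4 groups overlapped. The 19 coagulation members summed to 18615, 23330.4 and 20723 CPM in WT LS, 20919, 21115 and 22415 in WT MS, 19308, 22214 and 21504 in KO MS and 28848, 19973 and 12641 in KO LS, with means of 20889 ± 2362, 21483 ± 813, 21009 ± 1515 and 20487 ± 8115 CPM (SD, n = 3). KO LS therefore held both extremes of the coagulation sum, S10 the highest and S12 the lowest of all 12 libraries. CPM with no scaling factor put S12 at 19312 CPM for coagulation and 14336 for complement, and S7 lowest for both at 14493 and 6624 CPM. Complement made up 36.7% to 42.6% of the combined sum in KO LS, 31.4% to 35.6% in KO MS, 32.0% to 40.8% in WT LS and 30.9% to 32.4% in WT MS, a share that does not depend on scaling. C3 was highest in S10 and S12, and without C3 the complement sum was 6656 ± 2651 CPM in KO LS and 7738 ± 806, 7263 ± 721 and 7674 ± 616 CPM (SD, n = 3) in WT LS, WT MS and KO MS.

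**Figure D1:**
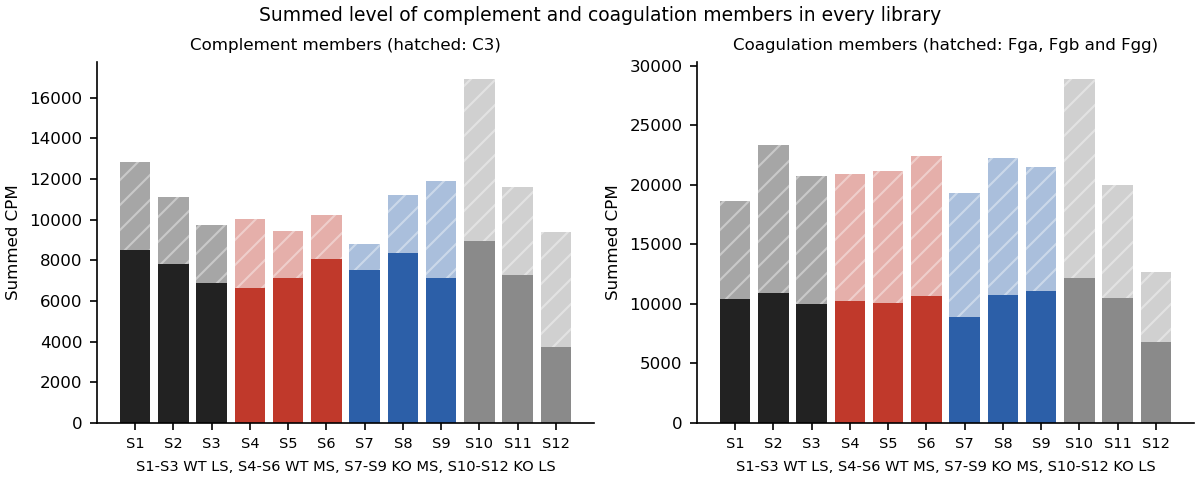
Summed CPM (vertical axis, after TMM scaling) of the 18 complement members (left) and the 19 coagulation members (right) in each of the 12 libraries, coloured by group; the hatched part of a bar is C3 on the left and the 3 fibrinogen genes on the right. S10 is highest in both panels (16905 and 28848 CPM), S12 is lowest for coagulation (12641 CPM), and C3 makes up the greater part of the S12 complement bar.

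Single libraries stood out across many members at once. S12 was the lowest library for 26 of the 37 members (12 complement, 14 coagulation), whereas it was lowest for 25.0% of all tested genes. There, 35 of 37 members lay below their own mean over the 12 libraries, with a median deviation of -0.91 for complement and -0.80 for coagulation on the log2(CPM + 0.5) scale against 0.025 for all genes. C3 and F5 (factor V, the cofactor of factor Xa) were the exceptions, at deviations of 0.73 and 0.44. Without scaling factors S12 was lowest for 11 members and S7 for 18, and the S12 deviations were -0.30 and -0.19 against 0.61 for all genes. As sums, hepatocyte markers were lowest and bile duct and stellate cell markers highest in S12 (stellate sum 862 CPM, elsewhere 451 to 728 CPM). Single genes differed, with Alb lowest in S1 (42859 CPM, 49198 in S12) and Apob in S7 (6431 CPM, 12626 in S12). Of 9 stellate markers, 6 were below 0 for Scly KO against WT on low selenium (45.8% of all genes), and the highest was at 2.89. The part of these cells in the low member levels of S12 was not tested. S7 was the lowest library for 9 members (23.6% of all genes), S1 for 2 (15.4%), and no other library for any. S1 was the highest for 12 members (14.6% of all genes), S10 for 8 (10.4%) and S7 for 6 (24.3%).

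**Figure D2:**
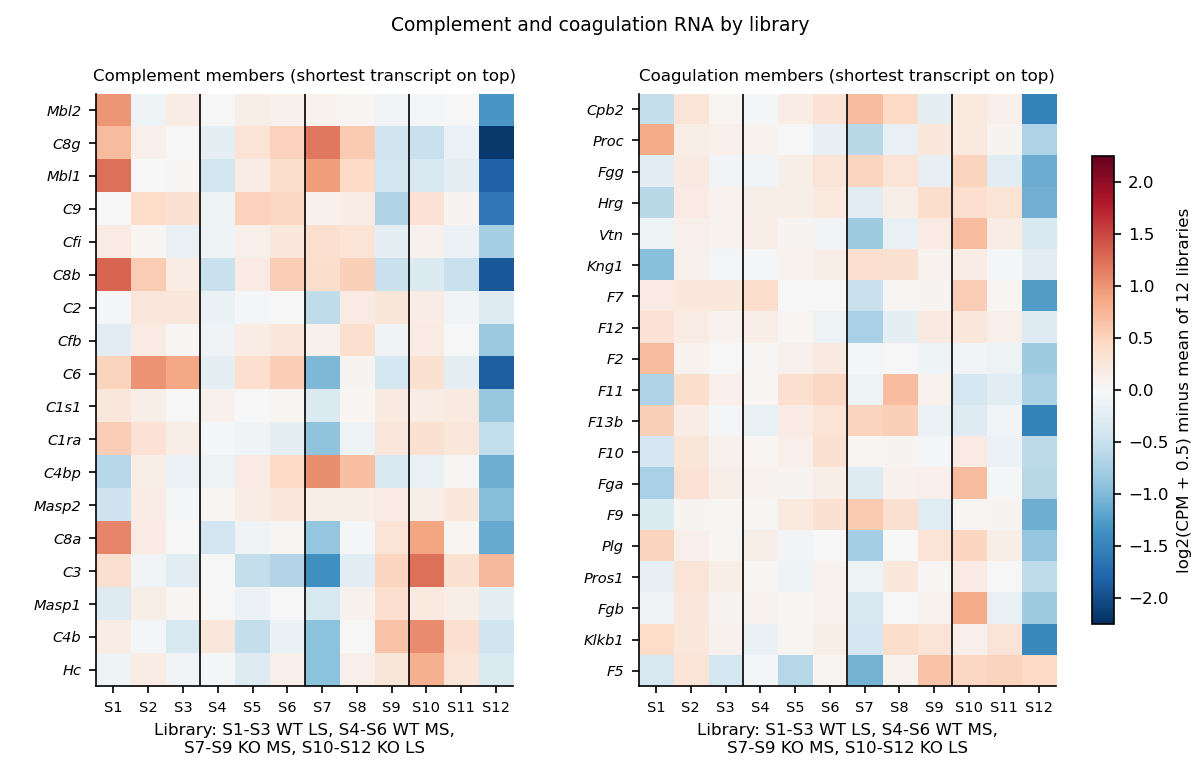
Each cell is the log2(CPM + 0.5) of 1 member (rows, shortest transcript on top) in 1 library (columns, groups separated by black lines) minus that member's mean over the 12 libraries, red above and blue below. The S12 column is blue for 35 of 37 members, and the S7 column is blue for most of the long transcripts at the bottom.

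On low selenium, where loss of Scly was compared with WT under the poorer supply, 0 of 37 members passed edgeR's quasi-likelihood test at an adjusted p of 0.05 (0.00833% of all genes, which is Scly alone). The smallest adjusted p among the members was 0.439. DESeq2 called 0 members (0.393% of all genes) and limma-voom 0 (0.749%). At an unadjusted p under 0.05, edgeR had 4 members lower in KO LS and 0 higher, 10.8% of the members against 11.2% of all genes, and 5.47% of all genes were lower. All 4 belong to complement, and they are C8b, C6, Mbl1 and Mbl2. The groups did not overlap for 7 members, 18.9% against 24.9% of all genes (11.8% lower and 13.2% higher). C6, C8b, C8g, Mbl1, F2 and F13b sat lower in every KO LS library than in any WT LS library, and F5 sat higher.

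C8b and C6 encode parts of the membrane attack complex, the pore that complement inserts into membranes. C8b, the beta chain of C8 (chromosome 4, 104766317 to 104804548), was at 889.7, 527 and 402 CPM in WT LS, 251, 407 and 521 in WT MS, 468, 519.6 and 251 in KO MS and 288, 253 and 94.8 in KO LS. KO LS had the lowest mean of the groups, with S12 at the bottom, and S1 stood out above the rest. S4 of WT MS and S9 of KO MS lay below S10 and S11, so KO LS overlapped both groups on adequate selenium. The log2 fold change was -1.52 (SE 0.46) with an unadjusted p of 0.00545 from edgeR, and it was -1.20 without S12, -1.14 without S1 and -0.90 with limma-voom, which weights libraries by their quality. C6 (chromosome 15, 4727210 to 4804045) was at 173, 246 and 223 CPM in WT LS, 106, 159 and 181 in WT MS, 60.5, 127 and 93.5 in KO MS and 155, 105 and 33.5 in KO LS. S12 and S7 were the lowest libraries, and every WT LS library lay above every KO library. Its log2 fold change was -1.14 (SE 0.45) on low selenium and -0.67 (SE 0.44) on adequate selenium, with a 95% interval of -1.62 to 0.29 for the latter. The unadjusted p from edgeR was 0.0245 on low selenium. Without S12 the low-selenium value was -0.75, and without S10 it was -1.64. C9, which forms the wall of the pore, had log2 fold changes of -0.45 (SE 0.42) and -0.41 (SE 0.41) on low and adequate selenium. Hc, the mouse gene of C5, was at 621, 746 and 635 CPM in WT LS, 649, 543 and 722 in WT MS, 349, 723 and 801 in KO MS and 1158, 814 and 533 in KO LS, with a log2 fold change of 0.32 (SE 0.35) on low selenium. The groups overlapped for both C9 and Hc.

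The C8 protein joins an alpha, a beta and a gamma chain, and the RNAs of the 3 chains did not keep in step. C8a (chromosome 4, 104815680 to 104876398), a neighbour of C8b, was at 821, 436 and 385 CPM in WT LS, 283, 362 and 388 in WT MS, 208, 371 and 471 in KO MS and 710.1, 395 and 175 in KO LS, with a log2 fold change of -0.36 (SE 0.46) on low selenium. C8g (chromosome 2, 25498650 to 25501719), the lipocalin-like gamma chain, was at 677, 450.2 and 417 CPM in WT LS, 362, 514 and 596 in WT MS, 948, 625 and 302 in KO MS and 293, 378 and 91.7 in KO LS, with -1.02 (SE 0.49). The ratio of C8g to C8a counts was 4.56 in S7 and 0.413 in S10 and the ratio of C8b to C8a ranged 5.55-fold. For fibrinogen, also built of 3 chains, the ratio of Fga to Fgb ranged 1.78-fold, that of Fgg to Fgb 2.23-fold and that of Fgg to Fga 2.41-fold. These ratios do not depend on scaling. The C8g transcript measures 1150 bases and the C8a transcript 3617, and the pattern by length is described with the plot of deviations.

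Mbl1 and Mbl2 encode the mannose-binding lectins A and C, which recognise sugars on microbes and start the lectin pathway. Mbl1 (chromosome 14, 41151456 to 41158959) was at 338, 145 and 145 CPM in WT LS, 107, 161 and 188 in WT MS, 274, 196 and 106 in KO MS and 112, 122 and 40.2 in KO LS. S1 and S7 were high and S12 low, and the remaining KO LS libraries stood just under the WT LS libraries S2 and S3. Its log2 fold change on low selenium was -1.19 (SE 0.47) with an unadjusted p of 0.0254, and it was -0.67 without S1, -0.87 without S12 and -0.48 with limma-voom. Mbl2 (chromosome 19, 30232957 to 30239682) was at 461, 213 and 259.8 CPM in WT LS, 231, 254 and 247 in WT MS, 243, 238 and 222 in KO MS and 227, 231 and 93.3 in KO LS. Apart from a high S1 and a low S12, its libraries lay between 213 and 260 CPM. The log2 fold change of -0.76 (SE 0.35), at an unadjusted p of 0.05, was -0.37 without S1 and -0.47 without S12. The lectin-bound proteases lay close to 0, with 0.092 (SE 0.23) for Masp1, and -0.011 (SE 0.29) for Masp2, which cuts C4 and C2. C1ra and C1s1, the proteases of the antibody pathway, had -0.29 (SE 0.31) and -0.22 (SE 0.29).

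The convertase components and their regulators gave no member at an unadjusted p under 0.05 on low selenium. C3 (chromosome 17, 57203967 to 57228136) was at 4339, 3259 and 2849 CPM in WT LS, 3408, 2336 and 2161 in WT MS, 1302, 2844 and 4742 in KO MS and 7977, 4292 and 5641 in KO LS. KO LS held the highest libraries, S10 and S12, but S11 lay below S1 of WT LS and S9 of KO MS. The log2 fold change was 0.78 (SE 0.44), with a 95% interval of -0.18 to 1.73, and it was 0.41 once the dependence on transcript length and GC content had been removed from each library. C4b, whose product supplies the covalently bound part of the C3 convertase, was at 1078, 938 and 748 CPM in WT LS, 1139.5, 658 and 869.9 in WT MS, 505, 959.95 and 1491 in KO MS and 2000.1, 1229 and 699.9 in KO LS, with a log2 fold change of 0.51 (SE 0.44). Cfb, the protease subunit of the alternative pathway convertase, was at 833, 1107 and 992 CPM in WT LS, 927, 1093 and 1154 in WT MS, 1051, 1261 and 921 in KO MS and 1109, 976 and 545 in KO LS, and outside S12 its libraries lay between 833 and 1261 CPM. C2, its counterpart in the classical pathway, had -0.21 (SE 0.24), and Cfi (factor I, which cuts C3b and C4b) -0.25 (SE 0.28). C4bp, a cofactor of factor I, was at 467, 814 and 667 CPM in WT LS, 674, 827 and 991 in WT MS, 1502, 1169 and 571 in KO MS and 648, 743 and 339 in KO LS, with -0.17 (SE 0.39) and overlapping groups.

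**Figure D3:**
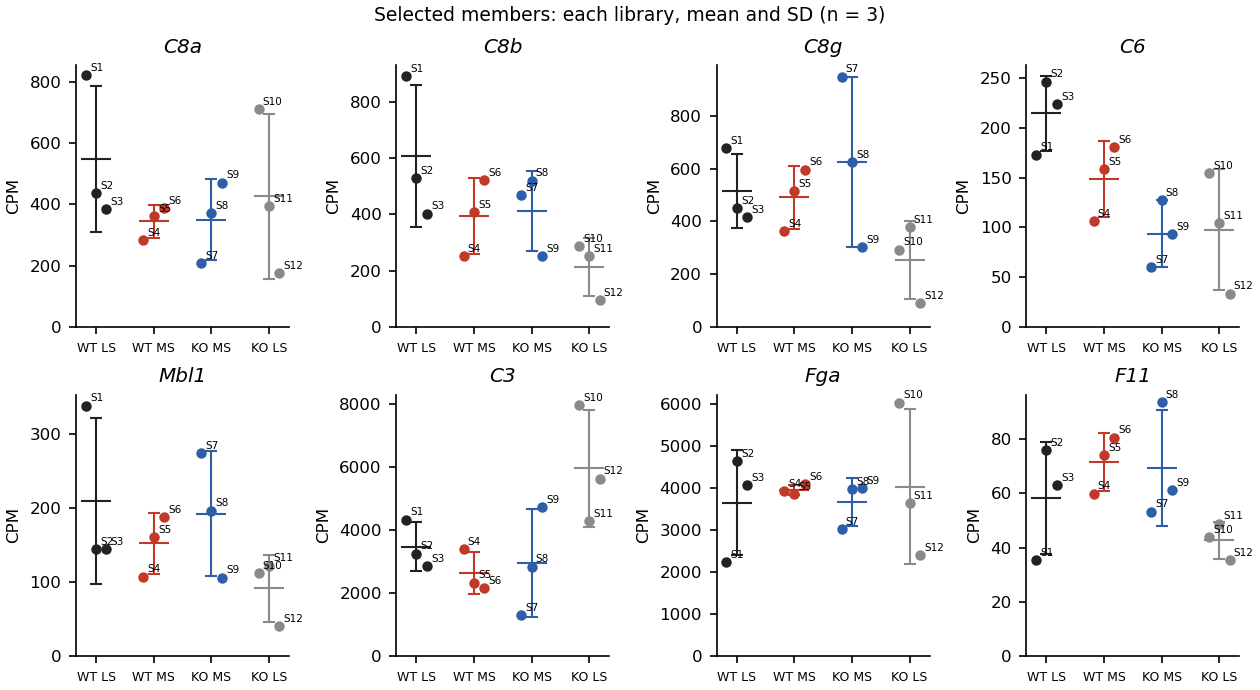
CPM after TMM scaling (vertical axis, from 0) of 8 members in the 4 groups; points are libraries, labelled by number, and the horizontal mark and bar are the mean and SD of 3 libraries. C8b, C8g and Mbl1 have their lowest mean in KO LS with S12 at the bottom, and C3 has its highest mean in KO LS with S10 on top. F11 of KO LS lies below all of KO MS.

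Among the coagulation members, 0 of 19 reached an unadjusted p under 0.05 on low selenium. F13b (the carrier subunit of factor XIII, which crosslinks fibrin) was at 357, 277 and 239.8 CPM in WT LS, 219.8, 282 and 307 in WT MS, 351, 357 and 224 in KO MS and 203, 238 and 85.8 in KO LS, with a log2 fold change of -0.73 (SE 0.35) and an unadjusted p of 0.0557 from edgeR. The KO LS values lay below those of WT LS, by the least for S11 (238 CPM against 239.8 in S3). F2, prothrombin, had -0.59 (SE 0.30), with WT LS at 2509.9, 1623 and 1539 CPM and KO LS at 1472, 1415 and 885. F5 had 0.58 (SE 0.38), with WT LS at 482, 764 and 469 CPM and KO LS at 851, 872 and 837. Of the other vitamin K dependent proteases, F7 (which binds tissue factor and starts coagulation) had -0.26, F9 -0.19, F10 -0.18 and Proc, protein C, -0.49, with SEs from 0.26 to 0.35. In the contact system, F12 had -0.16 (SE 0.27), Klkb1 (prekallikrein) -0.42 (SE 0.38) and Kng1 0.20 (SE 0.31). Kng1 was at 1002, 2059 and 1887 CPM in WT LS, 1904, 2031 and 2149 in WT MS, 2504, 2462 and 2052 in KO MS and 2161, 1884 and 1641 in KO LS, and S1 alone lay outside 1641 to 2504 CPM. The clot-dissolving side showed -0.21 (SE 0.37) for Plg and -0.18 (SE 0.40) for Cpb2, a carboxypeptidase that slows fibrinolysis. Plg was at 2224, 1704 and 1619 CPM in WT LS, 1719, 1521 and 1580.1 in WT MS, 927, 1567 and 1958 in KO MS and 2215, 1723 and 867 in KO LS. Hrg (histidine-rich glycoprotein) had 0.08 (SE 0.36) and Pros1 -0.19 (SE 0.23).

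By sign, 27 of 37 members lay below 0 on low selenium against 45.8% of all genes. Complement had 14 of 18 below 0 and a median of -0.24 on the log2 scale, coagulation 13 of 19 with -0.18, and all genes a median of 0.055. Without S12, 10 complement and 8 coagulation members lay below 0, with medians of -0.045 and 0.075, and 2 members (C6 and C8b) were at an unadjusted p under 0.05 against 5.79% of all genes. Without S10, 31 members lay below 0, with medians of -0.41 and -0.46. With limma-voom, 18 members lay below 0, with medians of -0.0028 and 0.024. Without scaling factors, which shifts all genes alike, 14 members lay below 0, with medians of 0.020 and 0.077 against 0.37 for all genes. Of 10 hepatocyte markers, 8 lay below 0 in the same comparison, with a median of -0.17, and the part of hepatocyte RNA as a whole in the members' values was not tested.

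On adequate selenium Scly KO and WT livers were close for most members. By edgeR 0 of 37 members passed (0.00833% of all genes), and 0 had an unadjusted p under 0.05 (0.924%). DESeq2 called 0 (0.0251%) and limma-voom 0 (7.54%). The smallest unadjusted p was 0.158, for C6, which without S12 was under 0.05 (as were 1.87% of all genes). F2 was the 1 member whose groups did not overlap (4.72% of all genes, 2.49% lower), with 1570.03, 1642 and 1761 CPM in WT MS and 1518, 1542 and 1446 in KO MS and a log2 fold change of -0.14 (SE 0.30). C8b, C8g and Mbl1, with negative values on low selenium, had 0.07 (SE 0.45), 0.35 (SE 0.49) and 0.34 (SE 0.47) here. Medians were 0.046 for complement and -0.046 for coagulation, and 17 of 37 members lay below 0, against 45.2% of all genes. The 95% intervals were wide for C3 (-0.78 to 1.12) and Fga (-0.94 to 0.72), and a difference of 1.5-fold in either direction lies within both. Narrower intervals, such as -0.44 to 0.55 for Pros1 and -0.38 to 0.63 for Masp1, do not hold it in both directions.

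**Figure D4:**
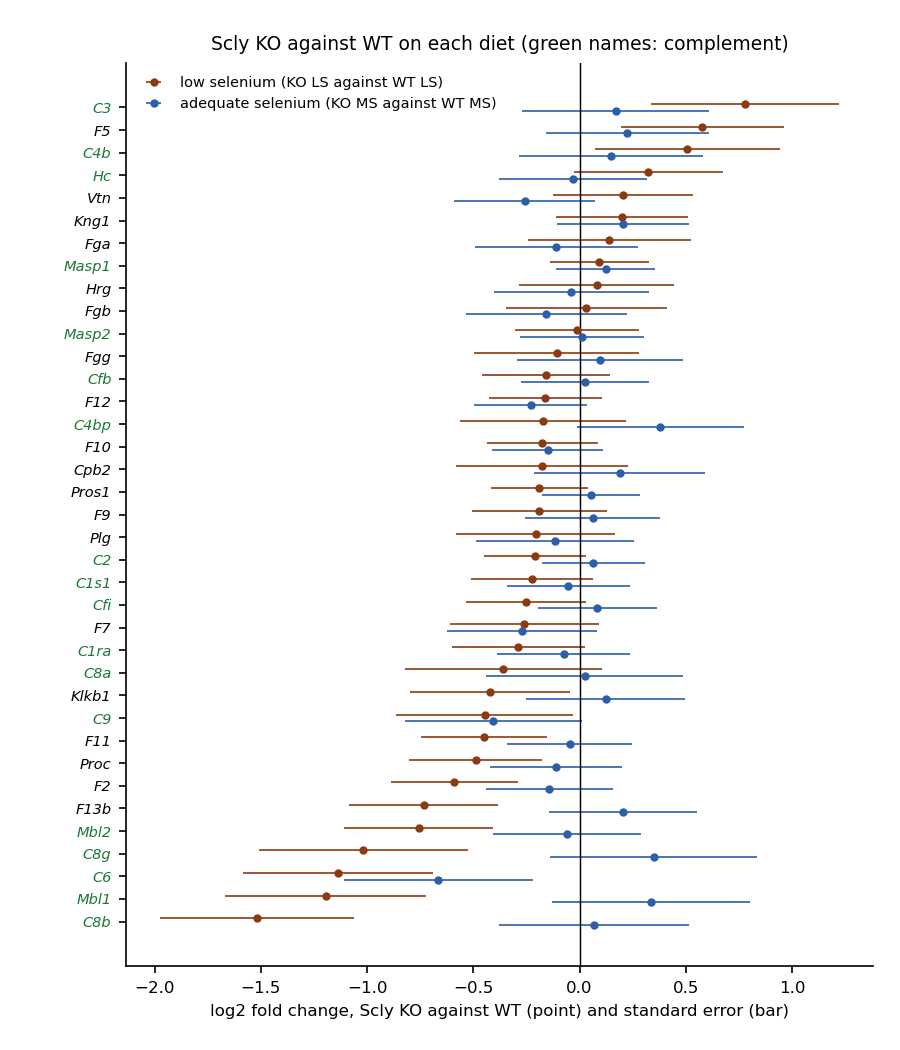
Log2 fold change of Scly KO against WT (horizontal axis, point) with its standard error (bar) for each of the 37 members, sorted by the low-selenium value; brown is low selenium, blue is adequate selenium, and green names are complement. C8b has the lowest low-selenium value (-1.52) and C3 the highest (0.78), while all blue points lie between -0.67 and 0.38.

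The test of the difference between the diets in the effect of genotype (the interaction) passed for 0 of 37 members with edgeR (0% of all genes), for 0 with DESeq2 (0%) and for 2, C8b and F11, with limma-voom (17.3% of all genes). At an unadjusted p under 0.05 edgeR had C8b, at -1.59 (SE 0.64), and Mbl1, at -1.53 (SE 0.67), which is 5.41% of the members against 6.73% of all genes (4.63% lower). For C8b the value lay between -1.22 without S1 and -1.88 without S6 when single libraries were left out, and was -0.54 without S7, S8 and S12, which leaves S9 alone in its group. Averaged over both diets, 0 members passed in Scly KO against WT (0.00833%), with C6 at -0.90 (SE 0.32) and C8b at -0.72 (SE 0.32) under an unadjusted p of 0.05 (3.74% of all genes, 1.28% lower). DESeq2 called 0 members there (0.226%) and limma-voom 0 (0.566%). No member kept its KO libraries wholly apart from its WT libraries over both diets (0.192% of all genes did).

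Low against adequate selenium within Scly KO livers gave the most unadjusted differences, among members as among all genes. With edgeR 0 of 37 members passed (0% of all genes), with a smallest adjusted p of 0.203. At an unadjusted p under 0.05 there were 6 members, 16.2% against 21.9% of all genes (12.7% lower and 9.24% higher), and 5 of them (C8g, F13b, F11, C4bp and Mbl1) were lower on low selenium while C3 was higher. DESeq2 called 0 members (4.79% of the 2691 genes to which it gave an adjusted p). Limma-voom called 11, which is 29.7% of the members against 49.9% of all genes. Its calls were C1ra, C3, C4b, F12 and Vtn, higher on low selenium, and C8b, C8g, Mbl1, C4bp, F11 and F13b, lower. Without S9, edgeR called C3, C8g, Mbl1, C4bp and F13b, 5 of 37 members against 32.5% of all genes.

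C8g had the smallest p, with -1.30 (SE 0.49) on the log2 scale, and its KO MS libraries spread from 302 to 948 CPM. F11 (factor XI, chromosome 8, 45241168 to 45262031) was at 35.5, 76.0 and 62.9 CPM in WT LS, 59.9, 74.1 and 80.5 in WT MS, 53.3, 93.5 and 61.1 in KO MS and 44.0, 48.9 and 35.3 in KO LS, and it was the 1 member whose KO LS and KO MS libraries did not overlap (10.9% of all genes, 5.33% lower), with -0.70 (SE 0.30). F13b had -0.83 (SE 0.35), C4bp -0.91 (SE 0.40), Mbl1 -1.07 (SE 0.47) and C3 1.01 (SE 0.45). In C8g, F13b, C4bp, Mbl1 and C3 the S9 library of KO MS lay inside the range of KO LS. Without S7 and S8, the libraries rich in Rn45s, the values were -0.25 for C8g, -0.52 for F11, -0.36 for F13b, 0.01 for C4bp, -0.22 for Mbl1 and 0.32 for C3, with S9 assumed to vary like the other groups, and 0 members had an unadjusted p under 0.05 (0.767% of all genes). Without S12, 2 members did (C3 and Vtn, against 11% of all genes). C1ra was at 345, 295 and 262 CPM in WT LS, 229.8, 223 and 203 in WT MS, 125, 216 and 282 in KO MS and 297, 282 and 159 in KO LS, Vtn at 1278, 1499.9 and 1454 CPM in WT LS, 1536, 1445 and 1320.4 in WT MS, 792, 1231 and 1572 in KO MS and 2241, 1541 and 1093 in KO LS and F12 at 391, 349 and 329.9 CPM in WT LS, 345, 322 and 286 in WT MS, 186, 269.8 and 356 in KO MS and 367, 335 and 255 in KO LS. S7 was the lowest of the 12 libraries for all 3, and their log2 fold changes were 0.24 (SE 0.31), 0.44 (SE 0.33) and 0.24 (SE 0.27).

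Within WT, low against adequate selenium gave 0 of 37 members by edgeR (0% of all genes), by DESeq2 (0.0167%) and by limma-voom (0.15%), and 0 with an unadjusted p under 0.05 (2.29%). Groups did not overlap for C1ra and Proc, both higher in WT LS (11.7% of all genes, 5.21% higher). C1ra had a log2 fold change of 0.46 (SE 0.31) and Proc of 0.43 (SE 0.31), with Proc at 457, 285 and 278 CPM in WT LS and 271, 259 and 227 in WT MS. The complement median was 0.080 and the coagulation median 0.0075, with 14 of 37 members below 0 (48.2% of all genes). In Scly KO the same medians were -0.093 and -0.16, with 23 members below 0 (46.7% of all genes), and without S12 they were 0.064 and 0.053, with 15 below 0. The comparisons on each diet and within each genotype share their libraries, and agreement between them is not counted as a repeat.

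Long members tended to have higher fold changes than short ones in the comparisons that include KO LS. Over the 37 members, Spearman's correlation of transcript length with the log2 fold change was 0.43 for Scly KO against WT on low selenium and 0.49 for the diets compared within Scly KO, and over 11862 genes with a known length it was 0.41 and 0.46. On adequate selenium the correlation was 0.11 for the members and -0.18 for all genes. These are descriptions, since members share libraries and differ in base composition. By library, the deviation of the members from their means correlated with length at -0.56 in S5 of WT MS, -0.53 in S7 and 0.52 in S9 of KO MS and at 0.36, 0.43 and 0.40 in S10, S11 and S12 of KO LS, and between -0.32 and 0.14 in the remaining libraries. The median deviation in S7 was 0.025 for the 12 shortest members (1089 to 1988 bases) and -0.38 for the 11 longest (3045 to 7430 bases), and in S12 it was -1.10 and -0.56. On low selenium 9 of the 12 shortest members lay below 0 (Kng1, Vtn and Hrg lay above), as did 13 of the 14 between them and the longest and 5 of the 11 longest (C8a, Klkb1, C4bp, Pros1 and Masp2). C8b (2239 bases) and C6 (2876) are near the members' median of 2587.

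With the dependence on length and GC content removed from each library, C8b kept -1.48, C6 -1.11 and Mbl1 -1.04 on low selenium, these being the members with an unadjusted p under 0.05 there (11.1% of all genes), while Mbl2 was at -0.45, C8g at -0.82 and F13b at -0.44. Between the diets in Scly KO, C8g at -0.90 was the 1 member left with an unadjusted p under 0.05 (15.5% of all genes), and C3 was at 0.63. The coagulation median in that comparison was 0.090 after the removal and -0.16 before it.

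**Figure D5:**
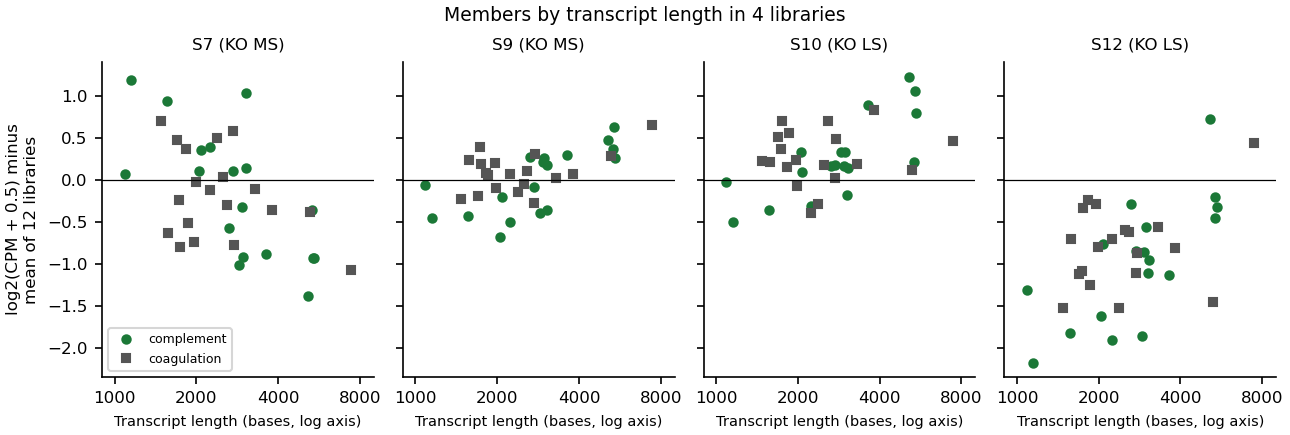
Deviation of each member from its mean over 12 libraries (log2(CPM + 0.5), vertical axis) against transcript length (bases, log axis) in S7, S9, S10 and S12; circles are complement and squares are coagulation members. The points slope downward with length in S7 and upward in S9, and in S12 they lie below 0 except for C3 and F5.

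The 3 fibrinogen genes lie within 1 stretch of chromosome 3 (Fgg, 83007724 to 83015056, Fga, 83026153 to 83033617, and Fgb, on the opposite strand, 83042246 to 83049863) and encode the alpha, beta and gamma chains of the protein that becomes fibrin. Fga was at 2246, 4645 and 4084 CPM in WT LS, 3936, 3853 and 4096 in WT MS, 3025, 3987 and 4003 in KO MS and 6039.6, 3645 and 2414 in KO LS. Fgb was at 3029.7, 3731 and 3328 CPM in WT LS, 3379, 3298 and 3359.6 in WT MS, 2480.4, 3164 and 3354 in KO MS and 5653, 2833 and 1825 in KO LS. Fgg was at 2964, 4040.2 and 3371 CPM in WT LS, 3364, 3864 and 4284 in WT MS, 4897, 4329 and 3092 in KO MS and 5006, 2996 and 1624 in KO LS. S10 was the highest library for all 3 chains, S12 the lowest for Fgb and Fgg and S1 for Fga, and the WT MS libraries stayed within 3853 to 4096 CPM for Fga and 3298 to 3379 CPM for Fgb. The log2 fold changes on low selenium were 0.14 (SE 0.38), 0.031 (SE 0.38) and -0.11 (SE 0.39), and on adequate selenium -0.11 (SE 0.38), -0.16 (SE 0.38) and 0.10 (SE 0.39). S10 was also the highest library for C3, C4b, Hc, Vtn and F7. In that library the acute phase genes Saa2 and Orm2 were at 751 and 40.1 CPM, against at most 17.3 and 7.99 CPM elsewhere, Saa1 was at 919 CPM where S11 and S12 had 16.4 and 24.2, and Hp (haptoglobin) was at 2799 CPM against at most 1932. Lcn2, another acute phase gene, reached 54.0 CPM in S10 and 51.4 CPM in S12 but at most 2.33 CPM elsewhere. Not all acute phase genes were highest in S10. Hpx was at 9179 CPM in S7 and 4520 CPM in S10, Orm1 at 1111 and 919 CPM, and Saa3 was also highest in S7. Summed over the acute phase list, the level was 17375 CPM in S10, 15308 CPM in S7 and 8198 to 12067 CPM elsewhere. Over the list of 17 acute phase genes, 16 were tested, 12 had a positive value for Scly KO against WT on low selenium (6507 of all 12009 genes did), and 6 of them were at an unadjusted p under 0.05, 37.5% of the list against 11.2% of all genes. EdgeR called 0, DESeq2 2 (0.393% of all genes) and limma-voom 0. The part of these values in the fibrinogen and C3 levels of S10 was not tested.

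The promoters of the fibrinogen genes and of C3 are shown because these members were all highest in S10. Each sequence is the RefSeq GRCm38.p6 window from 250 bases before to 50 bases after the annotated start, in the direction of transcription, and the capitals mark matches on either strand to 1 of 5 motifs. The motifs, whose matches do not overlap in these 4 windows, are GTTAAT (part of the HNF1 site), CAAAGTCCA (HNF4), CTGGGAA (the IL-6 response element), TTNNGNAA (C/EBP) and TATAAA.
Fga: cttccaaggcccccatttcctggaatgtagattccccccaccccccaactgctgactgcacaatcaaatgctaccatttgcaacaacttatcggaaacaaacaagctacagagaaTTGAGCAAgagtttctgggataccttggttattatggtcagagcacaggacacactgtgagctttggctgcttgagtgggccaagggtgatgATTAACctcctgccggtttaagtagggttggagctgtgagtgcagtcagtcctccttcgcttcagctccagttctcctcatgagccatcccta
Fgb: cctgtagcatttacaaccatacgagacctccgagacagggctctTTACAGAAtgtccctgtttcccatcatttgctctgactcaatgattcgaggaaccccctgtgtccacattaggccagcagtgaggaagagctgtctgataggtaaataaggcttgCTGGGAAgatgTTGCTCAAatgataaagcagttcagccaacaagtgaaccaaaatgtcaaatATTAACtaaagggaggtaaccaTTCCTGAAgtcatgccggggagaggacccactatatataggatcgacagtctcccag
Fgg: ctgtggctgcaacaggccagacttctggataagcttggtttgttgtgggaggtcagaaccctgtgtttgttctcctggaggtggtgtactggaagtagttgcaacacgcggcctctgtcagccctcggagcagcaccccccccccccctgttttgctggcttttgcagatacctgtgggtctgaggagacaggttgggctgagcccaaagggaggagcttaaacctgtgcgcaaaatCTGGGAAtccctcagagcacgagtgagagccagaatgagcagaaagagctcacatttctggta
C3: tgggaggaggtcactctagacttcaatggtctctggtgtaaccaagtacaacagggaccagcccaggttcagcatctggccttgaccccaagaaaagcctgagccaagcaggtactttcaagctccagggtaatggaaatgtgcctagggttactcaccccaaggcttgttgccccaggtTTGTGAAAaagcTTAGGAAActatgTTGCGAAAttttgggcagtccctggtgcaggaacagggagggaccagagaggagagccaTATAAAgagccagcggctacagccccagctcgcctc

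The windows are chr3:83025903-83026202 (plus strand) for Fga, chr3:83049814-83050113 (minus strand) for Fgb, chr3:83007474-83007773 (plus strand) for Fgg and chr17:57228087-57228386 (minus strand) for C3. Counting from the start site, GTTAAT matches begin at -43 in Fga and -29 in Fgb, and CTGGGAA matches at -91 in Fgb and -13 in Fgg. TTNNGNAA matches begin at -135 in Fga, at -206, -80 and -7 in Fgb and at -70, -58 and -45 in C3. TATAAA begins at 14 bases past the annotated start in C3. A promoter was listed for 29 of the 37 members. Each of these was counted once, by its first listed promoter. The background was all 32851 listed promoters, whether or not their genes are expressed in liver. GTTAAT stood in 10 of these 29 (34.5%) against 7.1% of 32851 promoters, CTGGGAA in 7 (24.1% against 11.1%), TTNNGNAA in 18 (62.1% against 40.7%), TATAAA in 5 (17.2% against 13.6%) and CAAAGTCCA in 0 (against 0.475%). The 10 with GTTAAT were C4bp, Hc, C8a, C8b, C1ra, F13b, F2, Fga, Fgb and Vtn, 5 from each cascade. For Scly KO against WT on low selenium they include negative log2 fold changes (C8b, F13b) and positive ones. Among the latter are Hc at 0.32 (SE 0.35) and Vtn at 0.20 (SE 0.33), both with overlapping groups. A match is a description of the letters, not a bound site.

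Genes of the same pathways outside the 37 members also gave no call by edgeR, DESeq2 or limma-voom on low selenium. Of 33 other complement genes, 25 were tested, and 6 were lower and 3 higher in KO LS at an unadjusted p under 0.05, 36% against 11.2% of all genes. Those with the smallest p were Cd55, which dissociates convertases on cell surfaces, at -1.05 (SE 0.32), Colec11, a collectin, at -0.51 (SE 0.19), C4a, the copy of C4b, at -1.76 (SE 0.67), and Fcna (ficolin A, another sugar receptor of the lectin pathway) at -1.12 (SE 0.43). The 3 higher ones were C3ar1, the receptor of C3a, and Itgam and Itgax, which encode chains of complement receptors of myeloid cells. Of 26 other coagulation genes, 17 were tested, with 3 lower (F8, Thbd and Tfpi) and 1 higher (Fgl1) at an unadjusted p under 0.05, 23.5% of those tested. F8, factor VIII, is made by endothelial cells and had -1.17 (SE 0.38), and Thbd (thrombomodulin) had -0.73 (SE 0.32). All 10 endothelial markers, a list that includes F8 itself, had negative values in that comparison (45.8% of all genes did), with a median of -0.40. These markers summed to 316 to 383 CPM in KO LS and 450 to 633 CPM in WT LS. Their part in the F8 and Thbd values was not tested. For Kupffer cells, the liver macrophages that carry several complement receptors, 7 of 10 markers were negative on low selenium (45.8% of all genes), with a median of -0.34. All 10 were positive on adequate selenium (6582 of all 12009 genes were), with a median of 0.61. Their sum was 610, 477 and 302 CPM in KO MS and 309 to 342 CPM in WT MS, so S7 and S8 lay above WT MS and S9 below. On adequate selenium 1 of the 25 complement genes (Vsig4, a complement receptor of Kupffer cells, with a log2 fold change of 0.71) and 0 of the 17 coagulation genes reached an unadjusted p under 0.05, against 0.924% of all genes. Limma-voom called 3 of the complement genes, all higher in KO MS (7.54% of all genes), and 0 of the coagulation genes, and edgeR and DESeq2 called 0 in either list. Vsig4, C1qa and C1qb are both Kupffer cell markers and listed among the other complement genes, so these lists are not separate observations.

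Several members have near-identical copies between which estimated counts could be divided. C4a was at 29.1, 13.7 and 24.6 CPM in WT LS, 9.55, 8.77 and 14.9 in WT MS, 10.1, 6.68 and 5.43 in KO MS and 12.8, 6.73 and 0.61 in KO LS. Its WT LS libraries all lay above those of KO LS, while C4b overlapped between these groups with a positive log2 fold change of 0.51. How counts were divided between C4a and C4b was not tested. Kng2, the copy of Kng1, was at 173 to 458 CPM, while C1rb and C1s2 stayed under 1 CPM. C8g overlaps Fbxw5, Masp2 overlaps Tardbp and F5 overlaps Gm16548 on the other strand. Mbl2 likewise overlaps Gm38437, Mir3084-1 and Snora19, and Cpb2 overlaps Mir466f-3. The library kit marks strand, but whether the counting used it is not given in the sources used here, and the levels of these members are uncertain to that extent.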

How the data were processed

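Poly(A) RNA of liver was sequenced from 12 directional libraries. The authors deposited estimated counts per gene (STAR alignment to mm10 and Partek quantification in Partek Flow, as the study states), of which 89.8% were whole numbers. Deposited tables with the authors' own comparisons hold p-values, false discovery rates and fold changes and were not used. Each of the 12 count columns named its group, and 0 value columns were without one. Counts were rounded, filtered with filterByExpr (minimum count 10) and TMM-scaled, and all 4 groups were fitted with edgeR 4.0.16 (quasi-likelihood, Benjamini-Hochberg over 12009 genes, R 4.3.3). Alternatives were limma 3.58.1 (voom with quality weights) and DESeq2 1.42.0, other scaling and filters, libraries left out, and offsets for length and GC content. CPM values refer to TMM-scaled totals. Deposited stop positions lie 1 past the RefSeq end, and ends are printed 1 lower (mm10). Transcript lengths are from GENCODE. The scripts were tested on simulated data.

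All 37 members are named. Every library's value is given for those with an unadjusted p under 0.05 in any comparison, a call by any tool or a place among the 5 most abundant of complement or coagulation, and values of other members were added after they were seen. Of other lists, up to 4 genes with the smallest p are named, while the 3 other complement genes with positive values and the acute phase, bile duct and copy genes were chosen after their values were seen. Members and lists were chosen with earlier results of these data known.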

Additional observations from a re-analysis of the deposited data

How the results depend on the processing

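In all 6 comparisons edgeR called 0 of 37 members, and so did each alternative run except limma-voom and edgeR without S9. Between the diets in Scly KO, limma-voom called 11 members, and leaving out single libraries gave 0 to 5 (5 without S9). Limma-voom called 2 members for the interaction. For Scly KO against WT on low selenium, 7 members with DESeq2, 7 with limma-voom and 4 with edgeR were under an unadjusted p of 0.05.

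Medians depended on several choices. For Scly KO against WT on low selenium they were -0.0028 (complement) and 0.024 (coagulation) with limma-voom, against -0.24 and -0.18 with edgeR. Removing the dependence on length and GC content gave coagulation medians of -0.095 there and 0.090 between the diets in Scly KO. Between the diets in Scly KO, the complement median was -0.42 without S10 and 0.064 without S12, the lowest and highest values with single libraries left out. For the interaction the coagulation median was -0.41 without S10 and 0.090 without S12. An alternative with no scaling factors, chosen after seeing the data, moved the median of all genes to 0.51 and 0.54 in these comparisons; the complement medians were then 0.28 and 0.15 and the coagulation medians 0.25 and 0.27. It also gave a coagulation sum of 18574 CPM in KO MS (21009 with TMM). These shifts come from the scaling factors, the 1 setting that differed.

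No paired analysis was possible because the columns carry a group and a library number but no replicate number of the labels. With 3 libraries a group, SEs of single members were 0.23 to 0.49 on the log2 scale in the comparisons of single groups and up to 0.69 for the interaction, and intervals cover the spread between libraries only. Total counts of 4797067 to 11762165 were not the limit for members, whose lowest level was 22.4 CPM.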

Other observations

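Genes that modify or export the factors, or control their transcription, were read beside the members. Of 8 genes of the vitamin K cycle and of factor secretion, 2 had an unadjusted p under 0.05 for Scly KO against WT on low selenium, both with higher values in KO LS, 25% against 11.2% of all genes. EdgeR and DESeq2 called 0 and limma-voom 1 (0.749% of all genes). They are Pcsk5, a proprotein convertase, at 1.41 (SE 0.42) on the log2 scale, and Nqo1, a quinone reductase, at 1.10 (SE 0.45). Pcsk5 was at 5.01, 3.80 and 2.63 CPM in WT LS and 9.85, 8.76 and 11.3 in KO LS. Nqo1 was at 2.28, 4.14 and 4.85 CPM in WT LS and 5.51, 7.60 and 11.5 in KO LS. Neither the coagulation members nor these genes as a list gave a call by edgeR.

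Of 20 liver transcription factors and IL-6 pathway genes, 2 were higher and 2 lower at an unadjusted p under 0.05 in KO LS than in WT LS, 20% against 11.2% of all genes, and edgeR and DESeq2 called 0 while limma-voom called 1, lower (0.749% of all genes). Cebpd, a C/EBP factor of the acute phase, had -1.02 (SE 0.25), with 13.3, 12.8 and 9.97 CPM in WT LS and 6.09, 4.97 and 6.62 in KO LS. Stat3, which carries the IL-6 signal to the nucleus, had 0.96 (SE 0.33), with 36.7, 50.3 and 55.1 CPM in WT LS and 104, 59.8 and 114 in KO LS. On adequate selenium Cebpd was the 1 listed gene at an unadjusted p under 0.05 by edgeR (0.924% of all genes). It was lower in KO MS (4.93, 5.33 and 5.16 CPM) than in WT MS (5.88, 9.15 and 10.4 CPM). Averaged over diets, Cebpd had an unadjusted p of 0.000337 from edgeR. There edgeR called 0 of the 20 genes, DESeq2 1 (0.226% of all genes) and limma-voom 2 (0.566%), all lower. Between the diets in Scly KO, 19 of these 20 genes had positive values (6397 of all 12009 genes did), with a median of 0.53 (0.055 for all genes). By edgeR 4 reached an unadjusted p under 0.05 (Stat3, Il6ra, Il1r1 and Nfkb1), 20% against 21.9% of all genes. Limma-voom called 13, 65% against 49.9% of all genes, and edgeR and DESeq2 called 0. The summed level of the list was 1118 CPM in S7 and 1503 to 2478 CPM elsewhere. In KO MS it was 1118, 1503 and 2065 CPM and in KO LS 2478, 2036 and 1581 CPM, so S9 lay inside the KO LS range.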
